A study of Mus musculus with 35 samples.

Results

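Lung transcripts after a single inhalation of 120 ppm styrene were compared with those after 40 ppm. Styrene is a volatile aromatic hydrocarbon used in plastics and resins. The 120 ppm group held 5 arrays and the 40 ppm group held 5 arrays, so the comparison used 10 of the 35 arrays of a dose series that also held 5 arrays each at 0, 1, 5, 10 and 20 ppm. All mice were adult male wild-type C57Bl/6 from a commercial breeder, and each breathed styrene or air for 6 h, alone in a wire-mesh cage. Whole lung was collected the next morning. Labelled RNA was hybridised to Affymetrix HT MG-430 PM arrays, whose probes of 25 bases lie mostly towards the 3' end of transcripts. Every non-control probe set with a single gene was eligible, and the brightest probe set stood for each of 17097 genes. Values are log2 signals, a difference is 120 ppm minus 40 ppm, and "rose" or "fell" means an adjusted p under 0.05. The labels call the arrays biological replicates, but batch and array plate were not given in the sources used here. The tissue label fitted its markers: Sftpa1, a surfactant protein gene of alveolar type 2 cells, averaged 13.05 at 120 ppm and 13.23 at 40 ppm, near the top of the array's range.

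Styrene is oxidised in the lung mainly by cytochromes P450, of which Cyp2f2 and Cyp2e1 are the best studied in the mouse. These enzymes are abundant in club cells, the secretory cells of the small airways, and the oxide they form is cleared by epoxide hydrolases and by conjugation to glutathione. In mouse lung styrene is known for effects on club cells, on glutathione and on airway cell division.

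Transcripts of foreign-compound metabolism, interferon-induced genes, sterol enzymes and the proteasome were mostly lower at 120 ppm than at 40 ppm. MHC class II genes, the complement C1q genes and platelet genes were mostly higher, though 1 of 6 platelet genes fell. Immediate early genes rose in 9 of 17 and fell in 3, which became 4 and 5 under 1 of the scalings described below. In all, 6798 genes rose, 39.8% of those tested, and 5318 fell, 31.1%, so that 70.9% were called in 1 direction or the other. The 5 arrays at 120 ppm did not overlap the 5 at 40 ppm for 7839 genes, 45.9%. No other step between neighbouring doses came near this number. The step to 40 ppm from 20 ppm gave 0 calls with limma (1995 genes at an unadjusted p under 0.05). That to 20 ppm from 10 ppm gave 11 rises (0.0643%) and 8 falls (0.0468%), and that to 10 ppm from 5 ppm gave 257 rises (1.5%) and 537 falls (3.14%). That to 5 ppm from 1 ppm gave 275 rises (1.61%) and 61 falls (0.357%), and that to 1 ppm from 0 ppm gave 0 calls with limma (1190 at an unadjusted p under 0.05). A share of members called in any list below has to be read against 39.8% higher and 31.1% lower. Many lists hold mostly bright genes, such as all 21 of the proteasome, and need a further comparison. Among the 7881 genes above a control described below on at least 5 of the 10 arrays, 37.2% rose and 50.7% fell. That filter itself favours falls. In whole lung, fewer cells of a type and less RNA per cell cannot be told apart.

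The 120 ppm arrays also stood apart in their control probe sets. Poly-A spike-ins, bacterial transcripts that are added to the RNA before it is labelled, read 8.15, 8.07, 8.51, 8.67 and 7.73 at 120 ppm (mean of 24 probe sets on each array), against 6.59, 6.54, 6.56, 6.52 and 6.39 at 40 ppm. The groups did not overlap, the difference of 1.70 gave p = 0.00794 in an exact permutation test (adjusted p = 0.0119 over 9 measures), the smallest that 5 arrays against 5 can give, and the other 30 arrays of the series ranged between 5.98 and 6.89. Each of the 24 spike-in probe sets was higher at 120 ppm, by 1.26 to 2.17. The same exact p of 0.00794 was found for 5 further measures. The mean nonspecific-hybridisation control was higher by 0.39, the highest such control by 1.19, the mean hybridisation spike-in by 0.40 and the lower quartile of non-control probe sets by 0.16, while the upper quartile was lower by 0.42 (6.52 ± 0.16 at 120 ppm and 6.93 ± 0.01 at 40 ppm; SD, n = 5 each). The array median differed by −0.04 (exact p = 0.0397, adjusted p = 0.051). The 3' minus 5' differences of the Actb and Gapdh control probe sets differed by −0.01 (exact p = 0.611) and 0.003 (exact p = 0.937), on probe sets that lie above log2 12 and may be close to saturation. That of Pcx, a dimmer control, averaged 3.01 ± 0.31 at 120 ppm and 3.09 ± 0.20 at 40 ppm (SD, n = 5 each; exact p = 0.595).

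**Figure D1:**
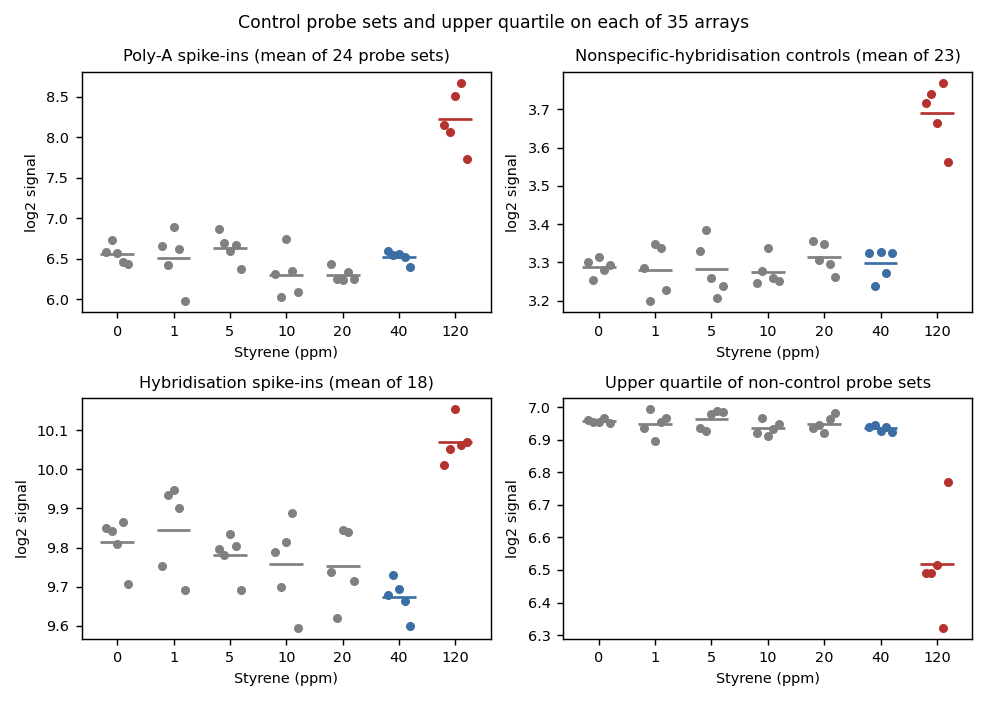
Mean log2 signal of poly-A spike-ins, nonspecific-hybridisation controls and hybridisation spike-ins, and the upper quartile of non-control probe sets, on each array (points) and as group means (lines), by styrene dose in ppm. The 5 arrays at 120 ppm (red) lie outside the range of the other 30 arrays in all 4 panels, with poly-A values between 7.73 and 8.67.

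Nonspecific controls are probes that match no mouse transcript, grouped by how many of their 25 bases are G or C. Their difference between 120 and 40 ppm grew with that number, from 0.13 at 3 bases to 0.70 at 24 and 1.19 at 25. Genes showed patterns of level, length and base composition as well. Among genes at or below log2 4 at 40 ppm, 49.3% rose and 0.832% fell, whereas between log2 8 and 9 at 40 ppm 33% rose and 54.4% fell. The 40 ppm level is itself part of the difference, so such classes favour rises among dim genes and falls among bright ones. Among the 7881 genes whose signal passed the highest nonspecific control of its array on at least 5 of the 10 arrays, 37.2% rose and 50.7% fell. That filter favours falls, because the control itself was higher at 120 ppm: 1129 of these genes were above it on 0 arrays at 120 ppm and 0 were above it on 0 arrays at 40 ppm. With a filter that treats both groups alike, a mean of at least log2 8 over the 10 arrays (chosen after seeing the data), 1807 of 3872 genes rose and 1574 fell, so rises outnumbered falls. Of the 7881 genes, those of at most 5 kb in the genome had a median difference of 0.50 (1020 genes), and those over 100 kb had a median of −0.94 (904 genes). Among the short genes 60.7% rose and 22.9% fell, and among the long ones 13.8% rose and 74.7% fell. The lists below were not set beside genes of like length. RefSeq promoter windows, 250 bases before to 50 after the start, were found for 6403 of the 7881 genes. Where at most 45% of the window was G or C the median was −0.95 (200 genes), where 55 to 60% was it was −0.02 (1348 genes), and where over 70% was it was −0.48 (1014 genes). Among the genes with a mean of at least log2 8, the medians were 0.49 up to 5 kb and −0.73 over 100 kb, and −0.86, 0.32 and −0.19 in the same 3 classes of the window. These are descriptions across genes, which are not independent replicates. The part of these control, length and base composition patterns in any gene's difference was not tested. Every 120 ppm array carried the control differences, so those and the dose cannot be told apart.

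**Figure D2:**
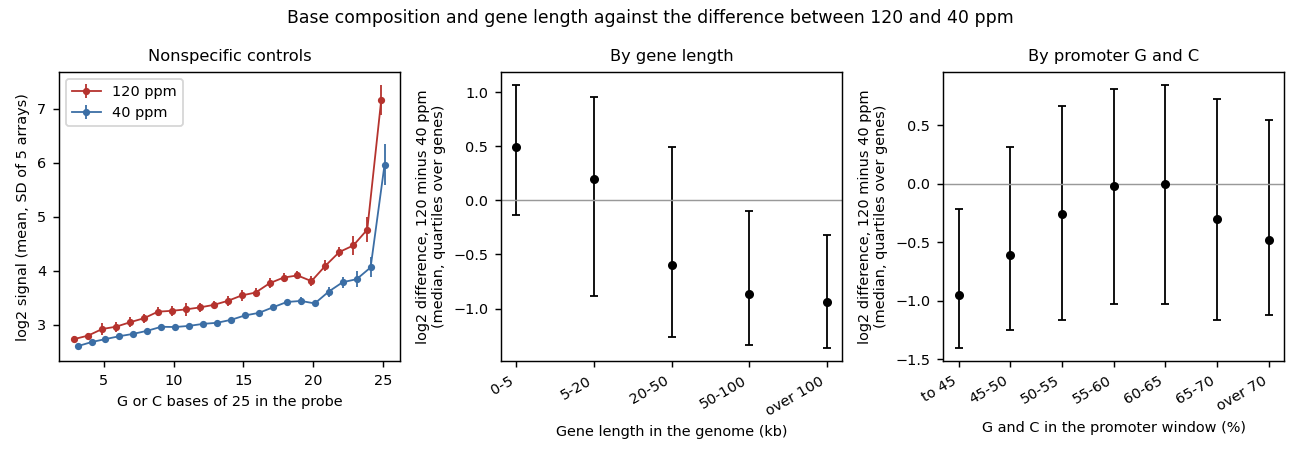
Left, log2 signal of nonspecific-hybridisation probes (mean and SD of 5 arrays) by the number of G or C bases at 120 ppm (red) and 40 ppm (blue). Middle and right, median and quartiles of the log2 difference over genes above the highest nonspecific control, by gene length in kb and by the share of G and C in the promoter window. The median is 0.50 for genes of at most 5 kb and −0.94 for genes over 100 kb.

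Replicates at 120 ppm varied more among themselves than those at 40 ppm. Correlations between arrays of the group were 0.957 to 0.991 at 120 ppm and 0.992 to 0.995 at 40 ppm, and the median SD of a gene was 0.27 at 120 ppm and 0.15 at 40 ppm. Replicate 5 at 120 ppm lay closest to the 40 ppm arrays. It was the highest of its group for 63.7% of the genes that fell and the lowest for 47.5% of those that rose, and its spike-in level was the lowest of the group. Replicate 4, with the highest spike-in level, was the lowest array for 38.6% of the genes that fell, but also for 29.1% of those that rose. Without replicates 4 and 5, 7040 genes rose and 5231 fell. With the spike-in level of each array as a covariate, 1293 genes rose (7.56%) and 1945 fell (11.4%), and 79 of 197 named genes kept their call. That level was 7.73 to 8.67 at 120 ppm and 5.98 to 6.89 on the other 30 arrays, so it nearly coincides with the contrast. Its slope rests on spread within groups, which costs precision. A call kept or lost in this fit therefore cannot tell the dose and the spike-in level apart. With the level trend of each array removed, 5836 genes rose (34.1%) and 4541 fell (26.6%). With each array shifted by its hybridisation spike-ins, which lowers all differences by 0.40, 2700 genes rose and 8259 fell, and the median turned in 12 of the 47 lists, each of them positive before. The rises of H2-DMa, C1qb, Gp1bb and Ier3 described below kept their call under that shift (0.92, 0.88, 1.62 and 0.54). These genes were picked for large rises in the same data, so their calls say little about their lists. Under the shift MHC class II genes gave 4 rises and 1 fall, and platelet genes also 4 and 1. Immediate early genes gave 4 rises and 5 falls, and basal cell and squamous repair genes 0 and 2. The covariate and level settings are called the covariate fit and the detrended fit. Counts of the covariate fit stand beside each group below, and those of the detrended fit where rises or falls moved by over 1.5 times. A gene at or below the highest nonspecific control on all 5 arrays of a group, a demanding floor that itself lay at 7.16 at 120 ppm and 5.97 at 40 ppm, has only a bound there, and folds against it are given as "at least" or the means alone are given. Where some arrays of a group passed the control, the difference is that of the measured values and may understate the change. The differences of Aox3, Gsta2, Ddx58, Gbp3, Itgax, Cyp51, Sc5d, Acaca, Ndufs1, Mcm6, Pfkp, Tgfa, Cp, Gabrp, Rsph1, Slc26a4, Gpm6a, Gzma, Kit and Ppbp rest on 5 arrays above it at 40 ppm but only 1 at 120 ppm. Psmd1 had 2 such arrays at 120 ppm, Ifit2, Cxcl10, Akap5 and Fabp4 had 3, and Cyp2a5, Oasl2, Pdia4, Cdc20 and Creb3l1 had 4. A named gene below it on all arrays of both groups is given no size. Levels above log2 12 may be close to saturation, so differences there may be understated.

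Of 22 measured genes of foreign-compound metabolism, 18 fell and 1 rose, with a median difference of −1.36 against 0.14 over all 17097 genes. Cyp2a5, a cytochrome P450 that oxidises nicotine and coumarin, read 7.41, 7.53, 8.44, 6.90 and 9.22 at 120 ppm and 9.72, 11.05, 10.17, 11.01 and 9.57 at 40 ppm. All 5 values at 120 ppm lay below all 5 at 40 ppm, with a difference of −2.40 ± 0.65 (SE; adjusted p = 0.00151). Cyp2e1, the cytochrome that oxidises ethanol and styrene, read 4.75, 4.91, 6.16, 4.02 and 6.24 at 120 ppm and 6.76, 9.35, 6.49, 9.31 and 6.04 at 40 ppm. Its groups overlapped, with 2 of the 40 ppm arrays far above the other 3. It was above the control on 4 of 5 arrays at 40 ppm and on 0 at 120 ppm, and it averaged 5.22 at 120 ppm and 7.59 at 40 ppm (adjusted p = 0.00931). Aldh1a1, an aldehyde dehydrogenase of club cells, averaged 10.75 ± 0.40 at 120 ppm and 12.31 ± 0.10 at 40 ppm (SD, n = 5 each), a difference of −1.56. The aldehyde oxidases followed: Aox3 fell by 1.93, and Aox1 was at least 1.57-fold lower (6.07 at 120 ppm and 7.81 at 40 ppm).

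Cyp2f2, the main styrene-oxidising cytochrome of mouse lung, was not called. It read 12.56, 12.40, 12.47, 12.11 and 12.66 at 120 ppm and 12.44, 12.65, 12.41, 12.68 and 12.54 at 40 ppm. The groups overlapped throughout and the difference was −0.11 (95% interval −0.27 to 0.06, adjusted p = 0.239), from a level of 13.24 at 0 ppm. Its size depends on the scaling: it was 0.16 in the detrended fit and 0.15 in the covariate fit. The hybridisation shift lowers it, like all differences, by 0.40. All these values lie above log2 12, where differences may be understated. Cyp4b1 was also not called (−0.11), and Cyp1a1 lay below the control on all arrays. The single member that rose was Ephx1, microsomal epoxide hydrolase, which turns styrene oxide into a diol (0.47). The detrended fit gave 15 falls and 2 rises. With the covariate 8 members fell and 0 rose, Aldh1a1 and Aox1 among them, while Cyp2a5, Cyp2e1 and Aox3 were not called.

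Genes of the NRF2 pathway, a transcription factor that answers oxidants and electrophiles, moved both ways: 11 of 21 fell and 6 rose, with a median of −0.28. Gsta2, a glutathione S-transferase, read 6.43, 6.02, 6.16, 5.80 and 7.23 at 120 ppm, against 8.59, 8.75, 8.09, 7.63 and 7.51 at 40 ppm. The arrays did not overlap and the difference was −1.78 ± 0.24 (SE; adjusted p = 6.29e-08). Across doses Gsta2 averaged 6.40 in air, 6.27 after 1 ppm, 8.49 after 5 ppm, 8.27 after 10 ppm, 8.29 after 20 ppm, 8.11 after 40 ppm and 6.33 after 120 ppm, where 1 of 5 arrays was above the control. Gsta4 fell by 1.53, and Gclc, the catalytic subunit of the enzyme that limits glutathione synthesis, fell by 1.80. Osgin1, an oxidant-induced gene, rose by 1.57 (9.41 ± 0.44 at 120 ppm and 7.84 ± 0.20 at 40 ppm; SD, n = 5 each). With the covariate 7 members fell and 1 rose. Gsta2 and Gsta4 kept their call there, and Gclc and Osgin1 did not.

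Interferon-induced genes were mostly lower at 120 ppm than at 40 ppm: 13 of 17 measured members fell and 1 rose, with a median of −1.06. Oasl2, an antiviral gene of the oligoadenylate synthetase family, read 7.45, 7.69, 7.91, 6.79 and 8.16 at 120 ppm, against 9.81, 9.63, 9.80, 9.64 and 9.87 at 40 ppm. No array overlapped, and it fell by 2.15 ± 0.17 (SE; adjusted p = 1.2e-12). Ifit3, which binds viral RNA complexes, averaged 8.67 in air, 7.97 after 1 ppm, 11.27 after 5 ppm, 11.57 after 10 ppm, 11.34 after 20 ppm, 10.77 after 40 ppm and 9.01 after 120 ppm. Its arrays at 120 ppm read 8.88, 9.25, 9.20, 8.39 and 9.34, all below the 11.24, 10.96, 10.87, 10.04 and 10.75 at 40 ppm (difference −1.76, adjusted p = 1.64e-09). Mx1, an antiviral GTPase, was at least 1.21-fold lower (5.49 at 120 ppm and 7.44 at 40 ppm), and Ddx58, the RNA sensor RIG-I, fell by 1.62, though 1 of its other probe sets rose by 0.37 and the other fell by 1.97. The single riser was Oasl1 (0.93), Ifit2 and Irf7 were not called (−0.61 and 0.37), and neither was Ifih1, which averaged 6.34 at 120 ppm and 6.28 at 40 ppm. Some members stood above air at 120 ppm: Oasl1 averaged 9.53 at 120 ppm and 4.80 in air, Irf7 9.77 and 6.11, Ifit1 8.38 and 6.38, and Rsad2 8.54 and 6.86. No test of these differences from air is given here. Without 120 ppm replicate 4 or 40 ppm replicate 5 the rises were 2. The detrended fit gave 10 falls and 2 rises. With the covariate only 1 of the 17 fell, Oasl2, and 2 rose.

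Promoters of interferon genes carry the interferon-stimulated response element, a short motif known from many antiviral genes. Its letters, GAAA followed by any 2 bases and GAAA again, were searched on both strands of the RefSeq promoter windows (GRCm38.p6), and they were found in 9 of 14 list members with a window, against 3.99% of all 27025 genes with one. Of the 9 members, 8 fell and Ifih1 was not called. Of the 5 without the letters, Oasl2 and Cxcl9 fell (Cxcl9 below the control on all arrays), Oasl1 rose, and Ifit2 and Irf7 were not called. In the covariate fit only Oasl2 of the list fell, a gene without the letters, so no member holding them kept its fall there. The windows of 60 bases shown here are 5' to 3' on the gene's strand and all upstream of the start. They are those of 7 fallen members, with the element in capitals. These genes were picked for holding the letters and for falling, so a link between letters and direction was not tested.
Ifit1, chr19:34640760-34640819, plus strand: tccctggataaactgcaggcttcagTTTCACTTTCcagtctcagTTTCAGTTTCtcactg
Ifit3, chr19:34583348-34583407, plus strand: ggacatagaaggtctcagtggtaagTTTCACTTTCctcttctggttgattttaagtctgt
Rsad2, chr12:26456538-26456597, minus strand: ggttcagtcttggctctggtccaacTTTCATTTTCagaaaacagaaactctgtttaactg
Cxcl10, chr5:92349068-92349127, minus strand: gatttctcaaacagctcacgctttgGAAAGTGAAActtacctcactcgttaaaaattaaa
Gbp2, chr3:142620579-142620638, plus strand: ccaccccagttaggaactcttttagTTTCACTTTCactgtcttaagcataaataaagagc
Gbp3, chr3:142559974-142560033, plus strand: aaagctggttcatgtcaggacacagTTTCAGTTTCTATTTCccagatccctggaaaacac
Igtp, chr11:58199496-58199555, plus strand: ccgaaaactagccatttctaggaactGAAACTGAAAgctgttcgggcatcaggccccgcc
Ifit1 and Gbp3 hold 2 matches each in these windows, which in Gbp3 overlap. The element is read there on either strand, and a match of letters is a description, not a site of binding. Of the printed genes, Ifit1 fell by 1.44, Rsad2 by 1.07, Cxcl10 by 1.06, Gbp2 by 1.37, Gbp3 by 1.00 and Igtp by 1.42.

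MHC class II genes, which present antigen on macrophages, dendritic and B cells, rose: 7 of 8 measured members were higher, 0 were lower, and the median was 0.69. H2-DMa, a subunit of the chaperone that loads peptide, read 9.62, 9.89, 9.80, 9.56 and 9.55 at 120 ppm, against 8.32, 7.99, 8.62, 8.37 and 8.54 at 40 ppm. The groups did not overlap (difference 1.31 ± 0.13, SE; adjusted p = 9.75e-11). H2-Oa, which restrains that chaperone, read 6.91, 7.83, 7.67, 7.40 and 7.50 at 120 ppm and 5.85, 5.50, 5.98, 5.72 and 5.91 at 40 ppm, with 4 arrays at 120 ppm and 1 at 40 ppm above the highest nonspecific control (difference 1.67). H2-DMb1 rose by 1.17 and H2-Ab1 by 0.77. The invariant chain Cd74 rose by 0.27 (10.98 at 120 ppm and 10.71 at 40 ppm) and H2-Eb1 by 0.62. The transactivator Ciita lay below the control on all arrays, and H2-Aa was not called (−0.03). After the hybridisation shift 4 rose and 1 fell. In the detrended fit 8 of 8 rose, and in the covariate fit 5 of 8, H2-Oa, H2-DMa, H2-DMb1 and H2-Ab1 among them. Of markers of cells that carry these genes, 2 of 9 for B cells rose and 1 fell, and 2 of 7 for dendritic cells rose and 3 fell. Of alveolar macrophage markers 0 of 10 rose and 7 fell, and of monocyte and interstitial macrophage markers 4 of 10 rose and 2 fell. The part of these cells in the result was not tested.

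The Y box of MHC class II promoters, an inverted CCAAT motif bound by NF-Y, was searched as CTGATTGG on both strands. It lay in 3 of 5 members with a window (H2-Oa, H2-Eb1 and H2-Aa), against 4.70% of all genes, and was not found as these letters in H2-DMa or H2-DMb1. The 3 windows are shown because 2 of the genes rose and H2-Aa was not called. They are 5' to 3' on the gene's strand with the box in capitals.
H2-Oa, chr17:34092307-34092366, plus strand: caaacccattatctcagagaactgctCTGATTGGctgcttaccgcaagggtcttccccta
H2-Eb1, chr17:34305779-34305838, plus strand: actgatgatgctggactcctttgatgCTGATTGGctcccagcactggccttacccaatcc
H2-Aa, chr17:34287841-34287900, minus strand: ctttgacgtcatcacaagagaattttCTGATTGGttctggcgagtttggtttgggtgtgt
The box started 46 bases before the gene's start in H2-Oa, 62 in H2-Eb1 and 51 in H2-Aa. Differences of the 3 genes were 1.67, 0.62 and −0.03 with the box present in each.

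**Figure D3:**
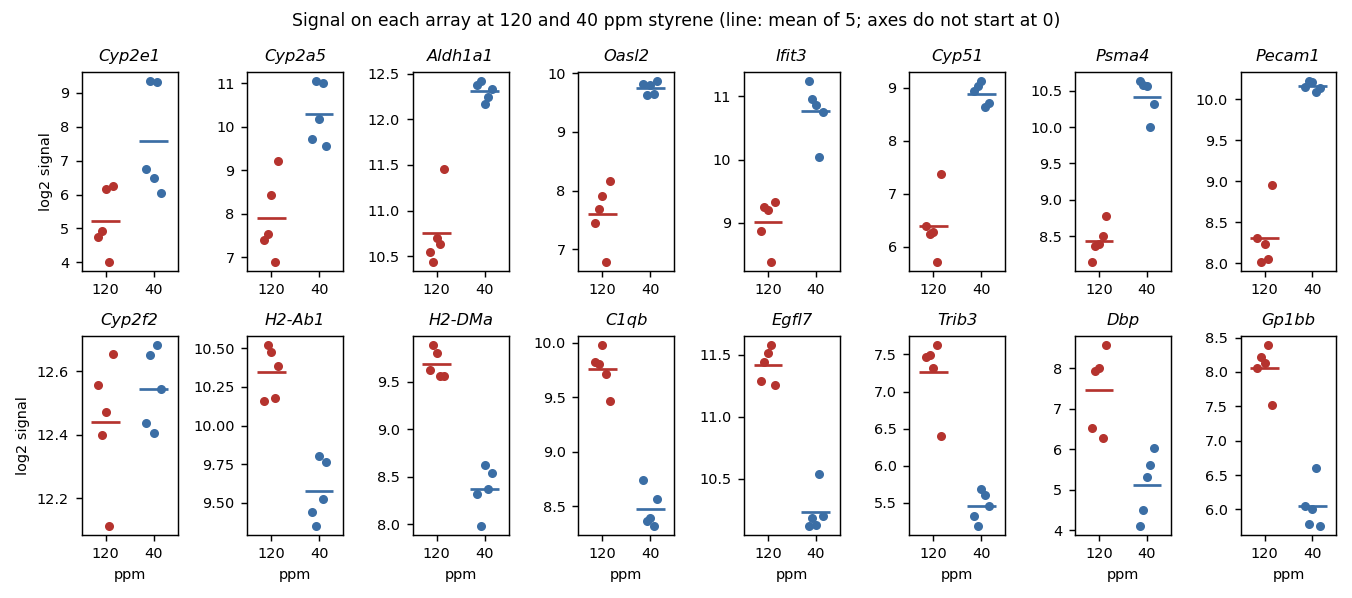
Log2 signal of 16 genes on each array at 120 ppm (red, left) and 40 ppm (blue, right), with the group mean as a line. Psma4 and Oasl2 show no overlap between groups, H2-DMa and C1qb show none in the other direction, and Cyp2f2 overlaps throughout.

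Sterol synthesis split by enzyme: 7 of 12 members fell and 3 rose, with a median of −0.91. Cyp51, lanosterol demethylase, read 6.38, 6.24, 6.27, 5.72 and 7.37 at 120 ppm, against 8.94, 9.04, 9.13, 8.63 and 8.71 at 40 ppm. It fell by 2.49 ± 0.19 (SE; adjusted p = 4.26e-13) with no overlap, after a climb over the lower doses (7.40 in air, 7.73 after 1 ppm, 8.15 after 5 ppm, 8.59 after 10 ppm, 8.84 after 20 ppm and 8.89 after 40 ppm). Sc5d, a sterol desaturase, fell by 2.28 (its other probe sets by 2.07 and 0.28), and Lss, lanosterol synthase, was at least 1.07-fold lower (5.45 at 120 ppm and 7.26 at 40 ppm). The early enzyme Mvk, mevalonate kinase, rose by 1.52 (8.29 ± 0.32 at 120 ppm and 6.77 ± 0.14 at 40 ppm; SD, n = 5 each), as did Mvd (1.22) and the late enzyme Dhcr7 (1.12). The covariate fit gave 4 falls, Cyp51 and Sc5d among them, and 0 rises.

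Fatty acid synthesis fell in 8 of 11 members and rose in 2 (median −0.90). Elovl5, which lengthens polyunsaturated chains, fell by 1.47, the desaturase Scd1 by 1.30 from a level above log2 12, malic enzyme Me1 by 1.29 and acetyl-CoA carboxylase Acaca by 1.18. Fatty acid oxidation fell in 7 of 13 and rose in 4 (median −0.72). Acadm, the medium-chain dehydrogenase, fell by 1.69 and Hadhb, of the trifunctional protein, by 1.53. Ehhadh, a peroxisomal enzyme, averaged 4.16 at 120 ppm and 5.79 at 40 ppm. Pdk4, which restrains pyruvate oxidation, was at least 1.16-fold lower (5.83 at 120 ppm and 7.37 at 40 ppm). Fallen members in the covariate fit were 3 of 11 for synthesis and 2 of 13 for oxidation.

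Proteasome subunits fell in 14 of 21 and rose in 5 (median −0.92). Psma4, a core alpha subunit, read 8.15, 8.36, 8.40, 8.50 and 8.77 at 120 ppm, against 10.63, 10.58, 10.57, 10.00 and 10.31 at 40 ppm. The groups lay more than 1 log2 unit apart, and it fell by 1.98 ± 0.10 (SE; adjusted p = 8.82e-17), from a level that was 10.43 at 0 ppm. Psmd1 fell by 1.83, the ATPase Psmc2 by 1.46 and Psma1 by 1.42, although 2 other probe sets of Psma1 were not called (0.11 and −0.01). The 5 that rose were Psmb3 (0.68), Psmb5 and Psmb6 (0.60 each), Psma7 (0.51) and Psmc4 (0.33). Falls in the covariate fit were 11 of 21, with 0 rises, against 11.4% and 7.56% of all genes in that fit.

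Subunits of other complexes also parted. Of 23 respiratory chain genes, 12 fell and 8 rose (median −0.26). Both core proteins of complex III were called in opposite directions: Uqcrc2 read 8.24, 8.36, 8.60, 8.78 and 9.07 at 120 ppm, against 10.77, 10.87, 10.57, 10.18 and 10.41 at 40 ppm, and Uqcrc1 read 11.24, 11.36, 11.19, 11.40 and 11.04 at 120 ppm, against 9.84, 9.86, 10.15, 10.21 and 9.93 at 40 ppm. Neither overlapped between groups, with differences of −1.95 and 1.25, and both kept their call in the covariate fit. Sdha fell by 1.66 and Ndufs1 by 1.75, and with the covariate 6 respiratory chain genes fell and 4 rose. Of 19 cytosolic ribosomal protein genes, 9 rose and 8 fell (median 0.11). The falls were the larger ones, with Rpl4 at −1.55 and Rpl7 at −1.18, while the rises reached 0.54 in Rpl8. The detrended and the covariate fit both gave 5 falls, with 11 and 0 rises. Of 21 ribosome biogenesis genes, 8 fell and 5 rose (median −0.20). Rrp9 rose by 1.59, Nolc1 was at least 1.34-fold lower, and Utp20 and Wdr12 fell to levels below the highest nonspecific control at 120 ppm (5.82 and 4.57, against 7.06 and 6.01 at 40 ppm). Biogenesis genes gave 6 falls and 8 rises in the detrended fit, and 4 falls and 2 rises with the covariate.

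In the unfolded protein and integrated stress responses, 12 of 20 genes fell and 4 rose (median −0.67). Chaperones of the endoplasmic reticulum fell, among them Dnajc3 by 1.76 (on all 5 of its probe sets) and the disulfide isomerase Pdia4 by 1.71. Trib3, a target of ATF4 and CHOP, read 7.47, 7.49, 7.32, 7.63 and 6.40 at 120 ppm, against 5.33, 5.19, 5.69, 5.60 and 5.46 at 40 ppm. Above the control on 3 of 5 arrays at 120 ppm and 0 at 40 ppm, Trib3 averaged 7.26 and 5.45 (adjusted p = 4.34e-11). The control averaged 7.16 at 120 ppm and 5.97 at 40 ppm, so no fold is given. Chac1, which degrades glutathione and is also an ATF4 target, rose by 1.68. Sesn2 rose by 1.22 and Sdf2l1 by 0.77. With the covariate 4 genes fell and 0 rose, and Dnajc3, Pdia4, Trib3 and Chac1 were not called. In the cytosolic heat shock list, 5 of 10 fell and 1 rose: Hsph1 fell by 1.24, Dnaja1 by 1.15 and Hspa8 by 0.93, while Bag3 rose by 0.69, a direction that turned in the covariate fit (−0.40). The median was −0.38, and rises were 2 without 120 ppm replicate 5 or 40 ppm replicate 3. The detrended fit gave 5 falls and 2 rises, and the covariate fit 4 falls and 0 rises.

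Targets of p53 gave 7 falls and 4 rises among 16 (median −0.39). Phlda3, which inhibits AKT, rose by 1.47 (10.24 ± 0.23 at 120 ppm and 8.77 ± 0.15 at 40 ppm; SD, n = 5 each). Perp was at least 1.94-fold lower, the death receptor Fas at least 1.88-fold lower and Mdm2, the p53 ubiquitin ligase, at least 1.14-fold lower. Cdkn1a, the cell cycle inhibitor p21, differed by 0.50 and was not called. Rises of the list were 2 without 120 ppm replicate 1 or 40 ppm replicate 5. The covariate fit gave 2 falls and 2 rises.

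DNA replication genes fell in 13 of 27 and rose in 8 (median −0.18). Mcm6, a subunit of the replicative helicase, fell by 1.66, and Mcm4 and Rrm1 were at least 1.22-fold and 1.34-fold lower. Rfc4, of the clamp loader, averaged 5.18 at 120 ppm and 6.85 at 40 ppm. Mitosis genes fell in 12 of 28 and rose in 4 (median −0.27), but only 4 of the 28 lay above the highest nonspecific control on at least 5 arrays. Cdc20, the activator of the anaphase-promoting complex, rose by 1.00. Ccna2 and Top2a averaged 4.84 and 4.51 at 120 ppm, against 5.92 and 5.42 at 40 ppm, and Melk lay below the control on all arrays. In the detrended fit 11 replication genes fell and 13 rose. With the covariate 5 replication genes fell and 1 rose, and 2 mitosis genes fell and 0 rose.

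Immediate early genes rose in 9 of 17 and fell in 3 (median 0.48). Junb rose by 1.35, Ier2 by 1.16 and Ier3 by 0.94, while Klf6 fell by 1.17, and its other probe sets by 1.42 and 1.91. Ier3, which limits apoptosis, averaged 12.17 ± 0.16 at 120 ppm and 11.23 ± 0.16 at 40 ppm (SD, n = 5 each), with no overlap, and it kept its call in the covariate fit, where 2 of the list rose and 0 fell. Fos fell by 0.64 and Egr2 averaged 5.29 at 120 ppm and 5.96 at 40 ppm (adjusted p = 0.000289), so the list did not move in a single direction, and after the hybridisation shift 4 rose and 5 fell.

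**Figure D4:**
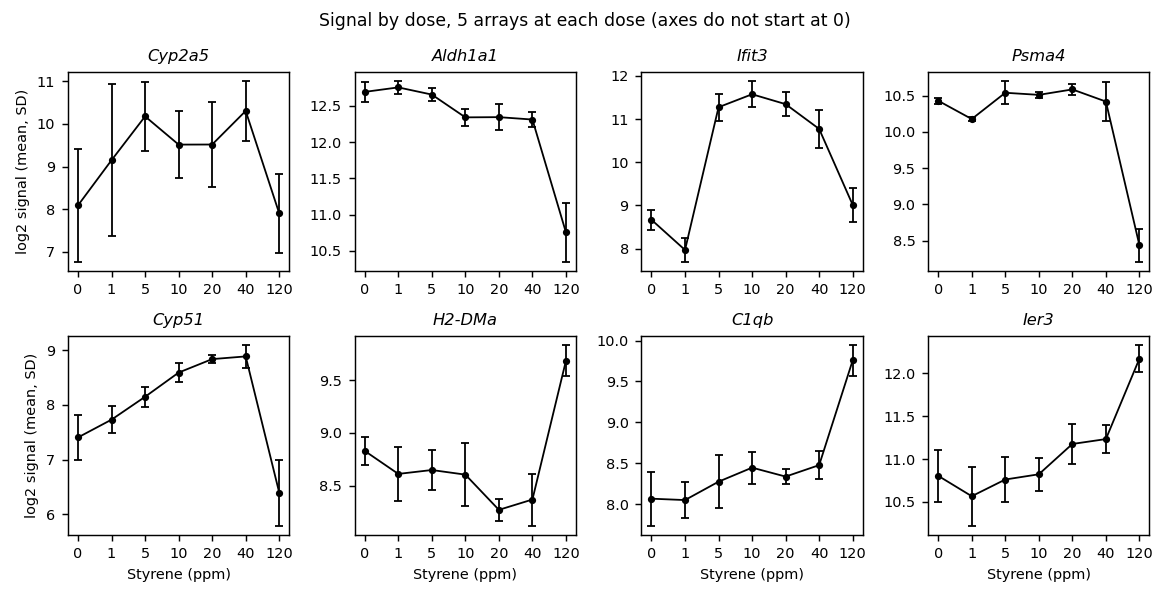
Mean and SD of log2 signal over 5 arrays at each dose, in ppm, for 8 genes. Ifit3 is high between 5 and 40 ppm and 9.01 at 120 ppm, Cyp51 climbs to 8.89 at 40 ppm and is 6.39 at 120 ppm, and H2-DMa, C1qb and Ier3 are highest at 120 ppm.

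Circadian genes fell in 6 of 17 and rose in 5 (median −0.08). Dbp, an output gene of the clock, read 6.52, 7.93, 8.02, 6.28 and 8.57 at 120 ppm, against 4.12, 4.51, 5.32, 5.62 and 6.04 at 40 ppm. Above the control on 3 of 5 arrays at 120 ppm and 0 at 40 ppm, Dbp averaged 7.46 and 5.12 (adjusted p = 0.00049). The control averaged 7.16 at 120 ppm and 5.97 at 40 ppm, so no fold is given. The lowest Dbp array at 120 ppm lay just above the highest at 40 ppm, and the gene kept its call in the covariate fit. Per1 rose by 1.04, and Arntl, the partner of CLOCK, averaged 4.56 at 120 ppm and 6.80 at 40 ppm, while its other probe set was not called (−0.21). Rora averaged 4.59 at 120 ppm and 6.01 at 40 ppm, a direction that turned in the covariate fit (0.90). The hour of collection is not given beyond the morning. Among glucocorticoid targets 5 of 14 fell and 3 rose (median −0.05), with Ddit4 at 1.06 and Errfi1 at −1.02. Glucocorticoid targets gave 4 falls and 5 rises in the detrended fit, and 2 falls and 0 rises with the covariate, with which 1 circadian gene fell and 2 rose.

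Glycolysis and hypoxia genes rose in 8 of 18 and fell in 7 (median 0.13). The phosphofructokinases parted, with Pfkl at 1.37 on this probe set and 1.39 and 1.36 on both others, and Pfkp at −1.56. Pgk1 fell by 1.31, and Ankrd37, a hypoxia-induced gene, rose by 1.37 with 2 arrays at 120 ppm and 1 at 40 ppm above the control. In the EGF receptor list 5 of 12 fell and 2 rose (median −0.15): Erbb2 rose by 1.26, the ligand Tgfa fell by 1.11 although 2 other probe sets were not called, and Btc lay below the control on all arrays. The covariate fit left 4 falls and 0 rises among the glycolysis genes and 1 fall and 0 rises in the EGF list, which had 4 falls and 5 rises in the detrended fit.

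Inflammatory cytokines and chemokines changed in few members: 3 of 19 rose and 3 fell (median −0.32), and only 3 of the 19 lay above the highest nonspecific control on at least 5 arrays. Falls were 6 without replicate 5 of either dose and 5 without 40 ppm replicate 1 or 4. Il33, an alarmin of epithelial and stromal cells, fell by 0.83 (8.81 ± 0.38 at 120 ppm and 9.64 ± 0.35 at 40 ppm; SD, n = 5 each). The monocyte attractant Ccl2 averaged 5.03 at 120 ppm and 5.93 at 40 ppm, Lif averaged 6.41 at 120 ppm and 5.91 at 40 ppm (above the control on 1 and 3 arrays), and Ccl7 lay below the control on all arrays. None of the 19 was called in the covariate fit. Among 14 genes of type 2 inflammation 6 rose and 5 fell (median −0.29). Chil4, a chitinase-like protein, averaged 10.11 ± 0.32 at 120 ppm and 11.86 ± 0.30 at 40 ppm (SD, n = 5 each), a difference of −1.75, though its other probe set differed by −0.00. Retnla, a marker of alternatively activated macrophages, fell by 1.48, and the receptor Il4ra and the chemokine Ccl22 (4 arrays above the control at 40 ppm) rose by 1.10 and 1.02. The covariate fit gave 2 falls, Chil4 and Retnla, and 0 rises.

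In the coagulation and acute phase list 6 of 14 fell and 1 rose (median −0.46). Tissue factor F3 fell by 1.98 (7.87 ± 0.53 at 120 ppm and 9.84 ± 0.32 at 40 ppm; SD, n = 5 each) and kept its call in the covariate fit. Ltf, lactoferrin, averaged 6.50 at 120 ppm and 9.12 at 40 ppm with overlapping groups and 1 array above the control at 120 ppm (adjusted p = 0.00247), and the direction of Cp (−1.23) and Plaur (0.94) turned in the covariate fit, to 0.61 and −0.52. Collagen and matrix genes fell in 8 of 17 and rose in 5 (median −0.31). Timp3, an inhibitor of matrix proteases, fell by 1.56 on this probe set and by 1.48 to 1.68 on its 3 others, Fn1 by 1.18 and Col5a2 by 0.99, and Tnc averaged 5.07 at 120 ppm and 6.38 at 40 ppm. Coagulation and acute phase genes gave 3 falls and 2 rises in the detrended fit, and 1 fall and 0 rises with the covariate, with which 2 matrix genes fell and 1 rose.

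Markers of epithelial cells changed unevenly. Of 10 club cell markers 4 fell and 1 rose (median −0.31), with 2 falls in the detrended fit, 1 in the covariate fit and no rise without 120 ppm replicate 2. Scgb1a1, the club cell secretory protein, read 13.56, 13.57, 13.58, 13.49 and 13.58 at 120 ppm, against 13.76, 13.84, 13.72, 13.72 and 13.72 at 40 ppm. That gap of −0.19 (adjusted p = 0.000799) without overlap lies near saturation and turned in the detrended fit (0.03). Gabrp, a chloride channel subunit, fell by 2.10. Scgb3a1 fell by 1.07, a call lost when any 1 of 6 arrays was left out (replicates 1, 2 and 4 at 120 ppm and 2, 3 and 4 at 40 ppm), and Upk3a lay below the control on all arrays. The summed signal of the club cell list was 30210 to 41657 at 120 ppm and 40787 to 54765 at 40 ppm.

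Of alveolar type 2 markers 3 of 11 fell and 1 rose (median −0.09), and without 120 ppm replicate 5 the falls were 6. Sftpa1 fell by 0.17, a direction that turned in the detrended fit (0.07), while Cxcl15 fell by 0.71, Cd36 by 0.90 (turned in the covariate fit, to 0.39) and Lpcat1 rose by 0.30. In the detrended fit 2 fell and 5 rose, and with the covariate 1 fell and 0 rose. All 10 alveolar type 1 markers were called, 6 lower and 4 higher (median −0.50): Clic5 fell by 1.48, the caveolar protein Cav1 by 1.27 and Akap5 by 1.01, and Igfbp2 rose by 0.88. With the covariate 2 of them fell, Cav1 among them, and 1 rose.

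Ciliated cell markers fell in 7 of 14 and rose in 2 (median −0.42). Rsph1, of the radial spokes, fell by 1.82. Cdhr3, Tekt1 and Ccdc40 averaged 4.90, 5.18 and 5.08 at 120 ppm, against 7.15, 7.04 and 6.63 at 40 ppm, and these 3 kept their call in the covariate fit. The summed signal of the list nevertheless lay higher, at 5137 to 6100.5 at 120 ppm and 3380 to 4770.5 at 40 ppm. Goblet cell markers rose in 5 of 11 and fell in 2 (median −0.03), with 3 rises without 120 ppm replicate 1, 3 or 5 or 40 ppm replicate 1 or 5: Creb3l1 rose by 0.89, Slc26a4 fell by 1.34, Agr2 averaged 4.34 at 120 ppm and 6.02 at 40 ppm, and Spdef lay below the control on all arrays. Basal cell and squamous repair genes rose in 7 of 14 and fell in 0 (median 0.21), though 4 of the 7 (Krt14, Krt6a, Krt4 and Ivl) lay below the control on all arrays, whereas 0 rose and 2 fell after the hybridisation shift. Krt19 and Krt8 rose by 0.56 and 0.39 from levels close to or above log2 12, the difference of Krt8 turning to −0.01 when arrays were shifted by their hybridisation spike-ins. With the covariate 3 ciliated markers fell and 1 rose, 2 basal markers rose and 0 fell, and no goblet marker was called.

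Endothelial markers split into 9 higher and 7 lower of 18 (median 0.19). Pecam1, the junction protein CD31, read 8.31, 8.02, 8.23, 8.06 and 8.95 at 120 ppm, against 10.15, 10.22, 10.22, 10.09 and 10.14 at 40 ppm. Egfl7, a secreted factor of the same cells, read 11.29, 11.44, 11.51, 11.58 and 11.26 at 120 ppm, against 10.12, 10.18, 10.13, 10.54 and 10.20 at 40 ppm. Neither overlapped between groups. Pecam1 fell by 1.85 (adjusted p = 9.95e-16) and Egfl7 rose by 1.18 (adjusted p = 2.13e-12), so signals of markers of 1 cell type moved in opposite directions. Both kept their call in the covariate fit, which cannot tell the dose and the spike-in level apart. The angiopoietin receptor Tek fell by 1.65 and the related Tie1 rose by 1.09. With the covariate 3 endothelial markers fell and 2 rose.

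Fibroblast markers fell in 5 of 12 and rose in 3 (median −0.34). Npnt fell by 1.99 on the brightest of its 5 probe sets, Dpt by 1.51 and Dcn by 1.48, and Col14a1 averaged 5.71 at 120 ppm and 7.07 at 40 ppm. Smooth muscle and pericyte markers rose in 4 of 8 and fell in 1 (median 0.33), with Notch3 at 1.33, Des at 1.19 and Cnn1 at 1.11. Myh11, smooth muscle myosin, averaged 5.13 at 120 ppm and 7.07 at 40 ppm. Mesothelial markers gave 3 falls and 2 rises of 7 (median −0.20): Upk1b fell by 0.83, Msln rose by 0.59, and the falls of Gpm6a (−1.34) and Lrrn4 (at least 1.04-fold) turned in the covariate fit. Covariate counts were 3 falls and 1 rise for fibroblasts, and 0 calls for smooth muscle and for mesothelial markers.

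Alveolar macrophage markers fell in 7 of 10 and rose in 0 (median −0.67), with 4 falls and 1 rise in the detrended fit and 2 falls and 1 rise in the covariate fit. Plet1 fell by 1.48, and of its other probe sets one fell by 2.44 and one rose by 0.29. Siglecf, the lectin that marks these cells, averaged 5.58 ± 0.25 at 120 ppm and 6.58 ± 0.29 at 40 ppm (SD, n = 5 each), and Pparg averaged 4.71 at 120 ppm and 5.85 at 40 ppm. Fabp1 averaged 5.80 at 120 ppm and 6.52 at 40 ppm, a call lost without 120 ppm replicate 4 or 5 or 40 ppm replicate 5. The summed signal of the list was 4206 to 5258 at 120 ppm and 6030 to 7543 at 40 ppm.

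Complement C1q genes, expressed by interstitial macrophages, rose together. C1qb read 9.83, 9.80, 9.98, 9.71 and 9.47 at 120 ppm, against 8.74, 8.36, 8.39, 8.32 and 8.57 at 40 ppm. It rose by 1.28 ± 0.14 (SE; adjusted p = 1.26e-09) without overlap, beside C1qc (1.23) and C1qa (1.17), and C1qa and C1qb kept their call in the covariate fit. Other monocyte and interstitial macrophage markers did not follow: Adgre1, a surface antigen of mouse macrophages, averaged 5.82 at 120 ppm and 6.93 at 40 ppm, and 4 of 10 markers rose and 2 fell in all (median −0.14), or 2 and 1 with the covariate.

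Other blood and immune cell markers lay low. Of neutrophil markers 1 of 10 rose and 1 fell (median 0.15), Camp being below the control on all arrays. Of T and NK markers 3 of 11 rose and 2 fell (median 0.05): Gzma fell by 1.65, Nkg7 rose by 0.85 with 1 array at 120 ppm and 2 at 40 ppm above the control, Cd3e averaged 6.52 at 120 ppm and 5.72 at 40 ppm, and Cd3d averaged 4.63 at 120 ppm and 5.46 at 40 ppm. Of B cell markers 2 of 9 rose and 1 fell (median 0.04). Ms4a1 averaged 4.75 at 120 ppm and 5.98 at 40 ppm, the single fall, whose call was lost without 120 ppm replicate 1 or 3 or 40 ppm replicate 5, and Pax5 lay below the control on all arrays. Of dendritic markers 3 of 7 fell and 2 rose (median −0.13), with 1 rise without replicate 2 of either dose, 120 ppm replicate 1 or 40 ppm replicate 4: Itgax fell by 0.85, Zbtb46 averaged 5.70 at 120 ppm and 6.97 at 40 ppm, Cd209a averaged 5.38 at 120 ppm and 6.07 at 40 ppm, and Batf3 lay below the control on all arrays. Of mast cell and basophil markers 3 of 8 rose and 1 fell (median 0.22). Kit fell by 1.77, and Mcpt8, Fcer1a and Tpsb2 lay below the control on all arrays. With the covariate 2 B cell markers and 1 dendritic marker rose, and none of these 5 lists had a fall. In the detrended fit neutrophil markers gave 1 fall and 2 rises, B cell markers 0 falls and 1 rise, and dendritic markers 2 falls and 1 rise.

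Platelet genes rose in 5 of 6 and fell in 1 (median 1.51). Gp1bb, a subunit of the von Willebrand factor receptor, read 8.06, 8.21, 8.13, 8.40 and 7.52 at 120 ppm, against 6.05, 5.79, 6.01, 6.60 and 5.77 at 40 ppm. The groups did not overlap and it rose by 2.02 ± 0.21 (SE; adjusted p = 4.42e-10), the largest rise under the naming rule, with 3 arrays above the control at 40 ppm. Gp9, also with 3, rose by 1.60, and Itga2b and Treml1 lay below the control on all arrays. Ppbp, a platelet chemokine, fell by 1.39, so the list did not move in a single direction. With the covariate 1 of the 6 rose, Itga2b, and 1 fell. Erythroid markers rose in 3 of 5 and fell in 0 (median 0.20), with Alas2 at 1.38, Slc4a1 at 1.63 (2 arrays at 120 ppm and 1 at 40 ppm above the control) and Rhag below the control on all arrays, and none was called in the covariate fit.

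Markers of tissue next to the lung gave few calls. Of 10 cardiac muscle genes 2 rose and 0 fell (median 0.17), with 1 fall without 120 ppm replicate 3, and Mybpc3 and Myl2 lay below the control on all arrays. Of 10 hepatocyte genes 1 fell, Trf (−0.85), and 0 rose (median 0.13). Of 5 adipocyte genes 1 rose, a call lost without any 1 of 6 arrays (120 ppm replicates 2 and 4, 40 ppm replicates 1, 3, 4 and 5), and 1 fell (median −1.20), or 2 without 120 ppm replicate 3 and 3 without 40 ppm replicate 5: Fabp4 fell by 1.93, with an SD of 0.26 at 120 ppm against 1.14 at 40 ppm, and Lep lay below the control on all arrays. The detrended fit left 1 cardiac rise and no adipocyte rise, and of these 3 lists the covariate fit called 1 cardiac gene, which rose.

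**Figure D5:**
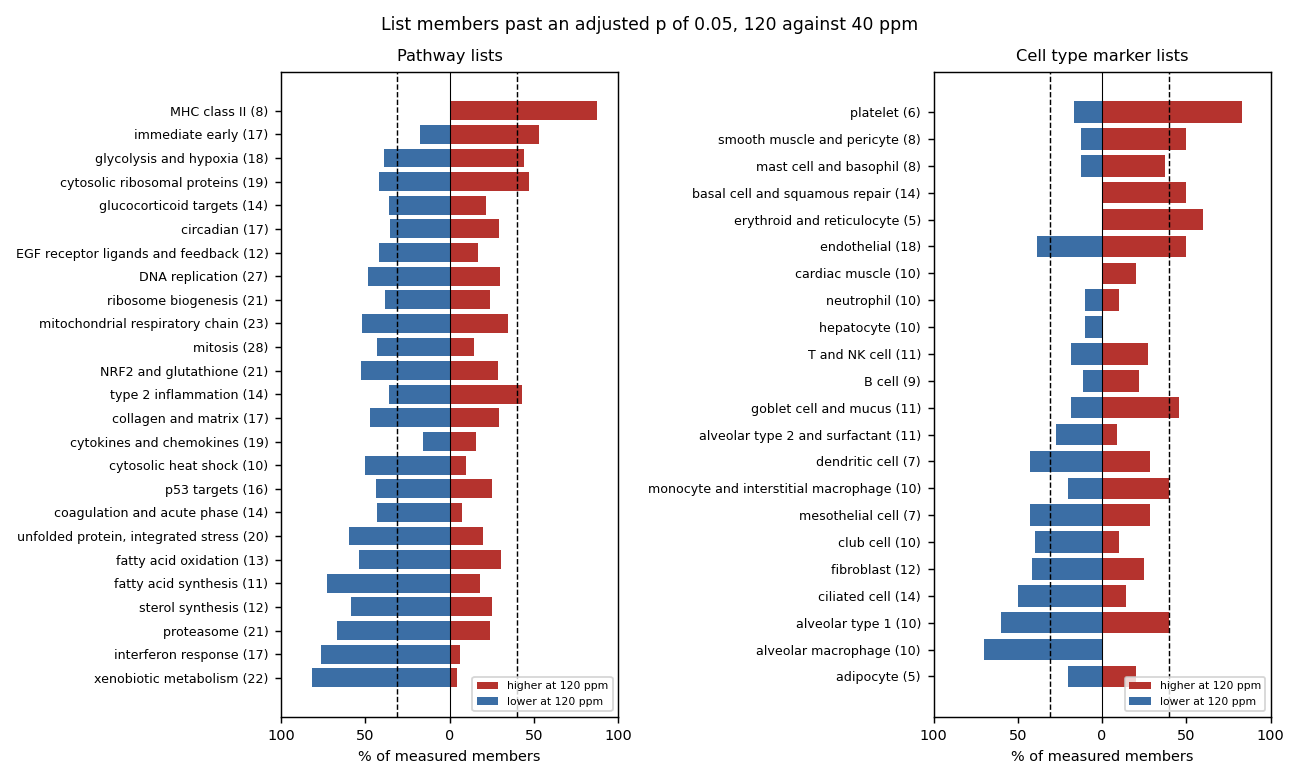
Share of measured members (number in brackets) that rose (red, right) or fell (blue, left) at 120 against 40 ppm, for pathway lists and cell type marker lists ordered by median difference. Dashed lines mark the 39.8% higher and 31.1% lower of all genes.

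The naming rule asks for a signal above the control on all 5 arrays of the brighter group. Among the 12 largest falls under it, Poglut1, which adds glucose to Notch, read 4.03, 4.24, 4.37, 4.31 and 6.08 at 120 ppm, against 7.87, 7.70, 7.81, 7.26 and 7.64 at 40 ppm, and was at least 1.41-fold lower (adjusted p = 2.29e-14), with 120 ppm replicate 5 far above the other 4. Tmem168, Tmem41b, Itgb6, Lonp2 and Rnf125 were at least 2.10-, 2.04-, 1.68-, 1.36- and 1.15-fold lower, Ttc29 averaged 4.52 at 120 ppm and 7.17 at 40 ppm, and of 2 other Lonp2 probe sets one rose by 0.35 and one was not called. Slc35f5 averaged 5.48 at 120 ppm and 8.36 at 40 ppm and Uhmk1 5.90 at 120 ppm and 8.52 at 40 ppm, each with 1 array above the control at 120 ppm, although 2 other Uhmk1 probe sets were not called (−0.23 and −0.29). Copg2, a coatomer subunit, averaged 4.13 ± 0.36 at 120 ppm and 6.99 ± 0.27 at 40 ppm (SD, n = 5 each), Rbl2, a relative of the retinoblastoma protein, averaged 3.99 at 120 ppm and 6.87 at 40 ppm, and C9orf72 averaged 4.18 at 120 ppm and 6.87 at 40 ppm. Of these 12 genes, Rnf125 and Rbl2 lost their call in the covariate fit.

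The 12 largest rises were of 1.74 to 2.02. Tssc4, a splicing factor, read 9.11, 9.20, 9.02, 9.28 and 8.80 at 120 ppm, against 7.27, 7.30, 7.50, 7.50 and 7.14 at 40 ppm (difference 1.74 ± 0.10, SE; adjusted p = 3.26e-15). The hair keratin-associated gene Krtap17-1 rose by 1.88, Armc6 by 1.85, Enho, which encodes adropin, by 1.84, the kinesin light chain Klc3 and the transcription regulator Sertad3 by 1.80 each, Pkdcc by 1.79, the blood cell transcription factor Lyl1 and the sphingosine receptor S1pr4 by 1.77 each, and Mettl22 and Sbk1 by 1.76 each. At 40 ppm Armc6 was above the control on 3 arrays, Lyl1 on 4 and Pkdcc on 1. With the covariate Krtap17-1, Klc3, Sertad3, Pkdcc, Lyl1, Sbk1 and Tssc4 kept their call, and Gp1bb, Armc6, Enho, S1pr4 and Mettl22 did not. Of 7180 genes with over 1 probe set, 569 had probe sets called in both directions, 5730 in 1 direction and 881 in neither.

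Finally, genes that already responded at 20 ppm were followed, since the 20 and 0 ppm arrays that chose them share none with the comparison of 120 and 40 ppm. Of 1102 genes raised at 20 ppm against 0 ppm (6.45% of all), 515 fell and 361 rose at 120 against 40 ppm, with a median of −0.21. Of 1153 genes lowered at 20 ppm (6.74%), 529 rose and 371 fell, with a median of 0.16. Among the 14842 genes not called at 20 ppm, 39.8% rose and 29.9% fell, with a median of 0.15. The raised genes thus had a smaller share of rises and a larger share of falls than the uncalled genes, and the lowered genes had a larger share of rises (45.9%) and a share of falls of 32.2%. Raised genes lay at a median of 7.89 at 40 ppm, lowered genes at 7.40 and the others at 5.49. Falls were more common among genes that were bright at 40 ppm, but that level is itself part of the difference, which favours falls there. Across the 2255 called genes the 20 minus 0 ppm and 120 minus 40 ppm differences correlated with r = −0.17, as a description across genes. After the level trend was removed, 451 of the raised genes rose (40.9%) and 428 fell (38.8%), 639 of the lowered genes rose (55.4%) and 260 fell (22.5%), and of the uncalled genes 32% rose and 26% fell. Among genes with a mean of at least log2 8, 269 raised genes rose and 247 fell, and 359 lowered genes rose and 177 fell.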

How the data were processed

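Total RNA of 35 whole-lung samples was measured, with 5 arrays in each of 7 dose groups. The authors deposited log2 probe set signals, and per the submitters' processing notes RMA and Partek were used. Their versions, the background step and the set of arrays normalised together were not given in the sources used here. No counts lie behind the values, so the number of arrays limits their precision.

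Of 45141 probe sets, 104 were controls and 28898 had exactly 1 gene in the platform annotation (551 had several). Each of 17097 genes was represented by its brightest probe set over the 35 arrays. In limma 3.58.1 (R 4.3.3; lmFit and eBayes) a linear model gave 1 mean per dose over the 7 groups, with Benjamini-Hochberg adjustment over 17097 genes and a threshold of 0.05, two-sided. Array controls were compared by two-sided exact permutation tests (252 arrangements). Above the control means above the highest nonspecific-hybridisation probe set of the same array. A bound compares the brighter group's mean with the dimmer group's mean after values below that control were set to it. The covariate fit adds each array's mean poly-A signal to the model, and the detrended fit removes each array's level trend by cyclic loess. Steps were tested on simulated data.

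The members and the 47 gene lists (706 genes, 630 measured) were chosen with earlier results of these data known. The naming rule took the 12 largest rises and falls among called genes that lay above the control on all 5 arrays of the brighter group and did not overlap, up to 4 called members of each list (with the member of smallest p where under 3 were called), and Cyp2f2, Cyp2e1 and Scgb1a1, leaving out provisional names. Other list members, such as those moving against a list, were named after their values were seen. Alternatives were all probe sets, bright genes only, a fold minimum of 1.5, a threshold of 0.1, other arrays, weights, variance models, scalings and covariates, a replicate block, and leaving out arrays. Leaving out 120 ppm replicates 4 and 5 together, and keeping only genes with a mean of at least log2 8 over the 10 arrays, were added after the data were seen. Promoter sequences are RefSeq's (GRCm38.p6). Tables and figures used the data.table package (version 1.17.8), Python 3.11.15, pandas, numpy and matplotlib.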

Additional observations from a re-analysis of the deposited data

Results flagged for a closer look

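Among 422 groups of 5 arrays, named genes and array measures at 120 and 40 ppm alike, 30 had an array far from the other 4 by Dixon's ratio. Chance gives about 1 in 20 such groups. Replicate 5 at 120 ppm accounted for 15 of the 30.

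For genes that fell at 120 ppm, replicate 5 was the high array. Its log2 signal was 6.08 for Poglut1 (the others between 4.03 and 4.37), 5.79 for Rbl2 (3.30 to 3.64), 6.14 for Lonp2, 5.58 for Ttc29, 7.39 for Aox3, 10.93 for Rpl4, 8.71 for Sdha, 11.45 for Aldh1a1, 7.70 for Slc26a4 and 9.63 for Clic5. For genes that rose it was the low array, at 8.22 for Enho (the others 8.92 to 9.10), 6.40 for Trib3 and 7.64 for Chac1. Its lower quartile of 3.71 lay below the 3.77 to 3.79 of the others, and 6800 of its genes passed the highest nonspecific control, against 5070 to 5290 on the others.

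Further arrays at 120 ppm that stood apart were replicate 4 for Upk1b (7.23), H2-DMb1 (8.13) and Scgb1a1 (13.49), replicate 3 for Dnaja1 (7.85) and Ccdc40 (4.89), replicate 2 for Top2a (5.14) and Krt6a (5.70), and replicate 1 for Rhag (3.25). At 40 ppm they were replicate 1 for Enho (7.21), replicate 2 for Upk3a (3.39) and the highest nonspecific control (5.33), replicate 3 for Slc26a4 (8.25), and replicate 4 for Mettl22 (6.91), Egfl7 (10.54) and the 3' minus 5' difference of Pcx (3.44).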

How the results depend on the processing

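Rises and falls at 120 against 40 ppm were 2932 and 3994 among genes above the control, 3266 and 4317 with a fold of at least 1.5, 2700 and 8259 with arrays shifted by their hybridisation spike-ins, 1293 and 1945 in the covariate fit, 1807 and 1574 among the 3872 genes with a mean of at least log2 8, and 10194 and 8936 over all probe sets. A replicate block gave 6835 and 5396, with no named call lost. The numbers do not pair the arrays: deviations of same-numbered arrays correlated at 0.079, −0.228, 0.122, 0.132 and 0.107, and only replicate 5 correlated best with its own number. Leaving out 1 array gave 6371 to 6977 rises and 5167 to 5417 falls. The settings on genes above the control, on genes with a mean of at least log2 8 and on all probe sets test other numbers of features (7881, 3872 and 28898), and the cause of the other shifts was not tested.

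Of genes raised at 20 ppm, rises and falls were 107 and 222 with a fold of at least 1.5, 653 and 855 with array weights, and 85 and 215 in the covariate fit. Of genes lowered there, they were 103 and 119, 852 and 821, and 136 and 145 under the same settings. With a mean of at least log2 8, raised genes gave 247 falls and lowered genes 177. Rises of these were 190 with the hybridisation shift, and falls 662 with only the groups compared and 658 without 120 ppm replicates 4 and 5. Without 1 array, counts were 334 to 416 and 485 to 626 for raised genes, and 498 to 656 and 346 to 537 for lowered genes.

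Without 1 array the array median differed by −0.044 to −0.027 (p above 0.05 without replicates 1, 3 and 4 at 120 ppm or 3, 4 and 5 at 40 ppm), the Actb 3' minus 5' difference by −0.0178 to 0.000625, and that of Gapdh by −0.016 to 0.027.

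Signs turned in the detrended fit for Sftpa1 (0.0726), Rhag (−0.0678), Cyp2f2 (0.16) and Scgb1a1 (0.0345). With the hybridisation shift they turned for Krt8 (−0.0051), Lpcat1 (−0.10), Pax5 (−0.0776), Rhag (−0.19), Fcer1a (−0.0716) and Lep (−0.13). In the covariate fit they turned for Bag3 (−0.40), Rora (0.90), Btc (0.43), Cp (0.61), Plaur (−0.52), Spdef (−0.00449), Cd36 (0.39), Lrrn4 (0.38), Gpm6a (0.0171), Cd3d (0.20), Ms4a1 (2.40), Lep (−0.0433) and Cyp2f2 (0.15), and the cause was not tested. Of 197 called named genes, 79 kept their call in the covariate fit, 106 lost it with the same sign and 12 turned in sign. With the hybridisation shift 17 lost it and 6 turned, and in the detrended fit 9 lost it and 3 turned. Whichever single array was left out, 191 kept their call.

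The median of a list turned in 12 of 47 lists with the hybridisation shift, 10 in the detrended fit, 5 in the covariate fit, 5 with quantile normalisation and 1 with arrays centred on their median. Signal over background limits the members near the nonspecific controls.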
